A study of Mus musculus with 2 samples.

Results

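Kupffer cell and myeloid genes are described here in the livers of Yap+/- mice, set against those of Yap+/+ mice. The 44 genes were listed by name for their known expression in liver macrophages or in leukocytes at large, and all 44 were found among the 18193 genes that the arrays read under a single gene symbol. Each gene was represented by whichever of its probe sets was brightest when both arrays were averaged, a probe set being a group of short probes against the same transcript. Members were placed in 5 groups by role, namely resident Kupffer cell genes (12), myeloid receptors and adaptors (9), pan-leukocyte genes (12), lysosomal and granule genes (6) and genes of the phagocyte oxidase and phagosome (5). The pan-leukocyte group also holds Aif1, Itgam and Itgax, described below as genes of macrophages or other myeloid cells.

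The Yap+/- group was 1 pool of livers from 5 mice carrying a disrupted copy of Yap1, and the Yap+/+ group was 1 pool of livers from 5 wild type mice. Both were untreated, 30 days old and of the C57BL/6 strain, to which the Yap+/- line had been crossed for at least 6 generations. Each pool was hybridised to 1 Affymetrix array, so there is no biological or technical replicate, no error of a difference and no test between genotypes. The sources used here do not give the design of the disrupted allele, the sex of the mice or their feeding.

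Kupffer cells are the resident macrophages of the liver. They sit in the sinusoids, are maintained by signals through the CSF1 receptor and depend on the transcription factor PU.1, which Spi1 encodes. They clear bacteria, complement-coated particles, dying cells and aged red cells from portal blood, and degrade them in lysosomes. YAP, the product of Yap1, is a co-activator that acts through TEAD factors at the end of the Hippo pathway. Clec4f, Cd5l, Vsig4 and Timd4 mark resident Kupffer cells in mice, whereas genes such as Ptprc are shared by nearly all white blood cells. All 4 Kupffer markers and Ptprc passed the minimum described below.

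Most members were slightly higher in Yap+/- liver, and none was far higher. A gene is called measured below if its log2 values averaged 6 or more on the pair of arrays, which held for 37 of the 44 members (84.1%) and for 9299 genes in all (51.1%). Of the 37 measured members, 33 were higher in Yap+/-, 3 were lower and 1 had equal values, so 89.2% were higher, against 48.8% of all measured genes. The median difference, log2 value in Yap+/- minus that in Yap+/+, was 0.26 over measured members (1.19-fold) and 0.00 over all measured genes. The quartiles of the members were 0.17 and 0.38. A size threshold of 0.322 on the log2 scale was used to count differences. Higher by at least that much were 13 measured members, which is 35.1% of them, against 3.86% of all measured genes. No measured member was lower by that much, against 3.18% of all measured genes.

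At larger thresholds few or no members were counted. Marco and Laptm5 alone were at least 1.5-fold higher, 5.41% of measured members against 0.699% of all measured genes, and 0 members were 1.5-fold lower, against 0.645%. No member differed by 2-fold, where 0.0968% of all measured genes were higher and 0.226% lower. The difference had no clear relation to level across the 37 measured members, with Spearman's rho = -0.14 between mean value and difference, given as a description because all points come from the same pair of arrays. Across all measured genes the differences had a robust SD of 0.15, and 28 of the 37 measured members were higher by more than that (75.7%), against 16.7% of all measured genes. This SD covers the spread between genes on these arrays and not that between mice or pools.

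**Figure D1:**
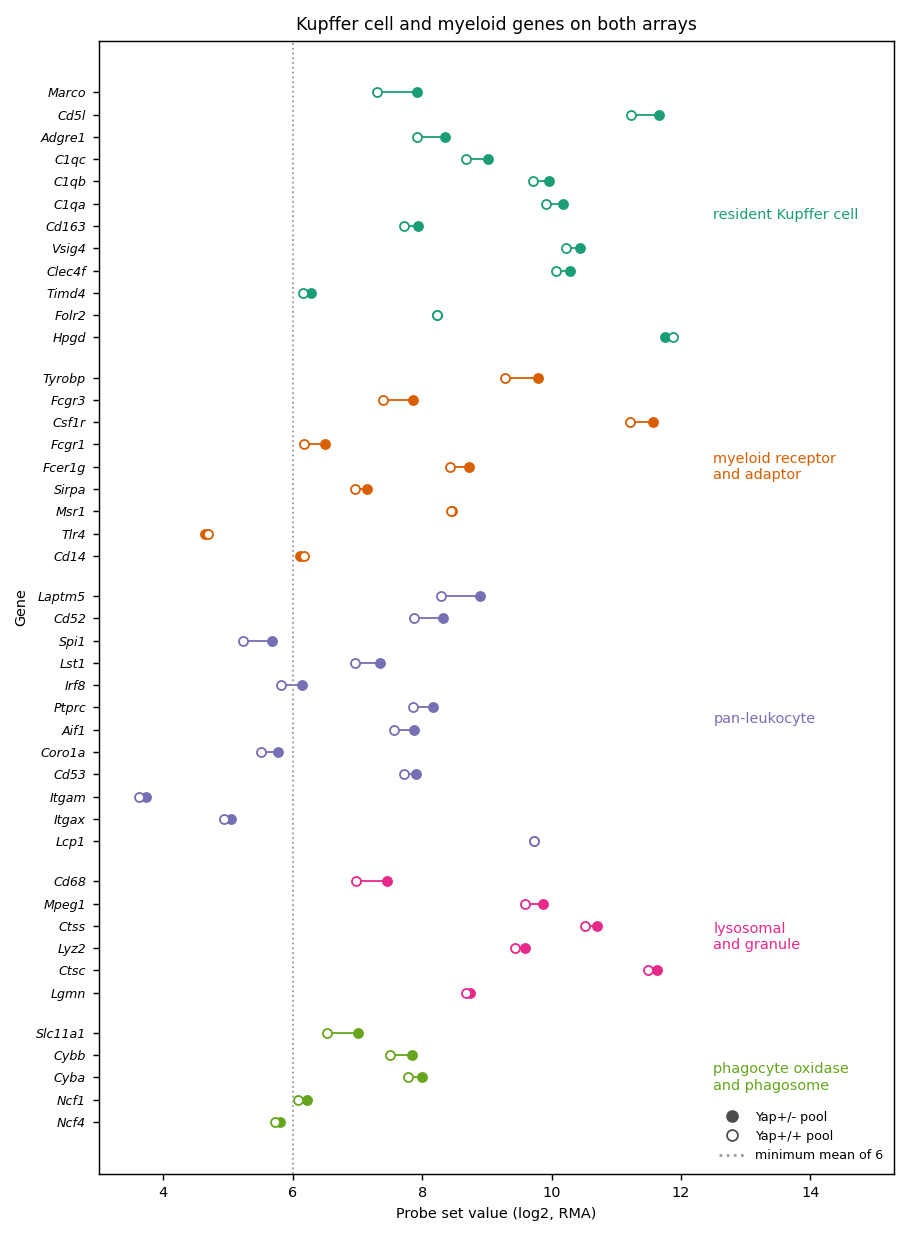
Log2 values (x axis) of the 44 members (y axis, grouped by role and sorted by difference) in the Yap+/- pool (filled circles) and the Yap+/+ pool (open circles), 1 array each, with a dotted line at the minimum mean of 6. The filled circle lies to the right of the open circle for 33 of the 37 measured members (89.2%, against 48.8% of all measured genes), with the widest gap at Marco.

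**Figure D2:**
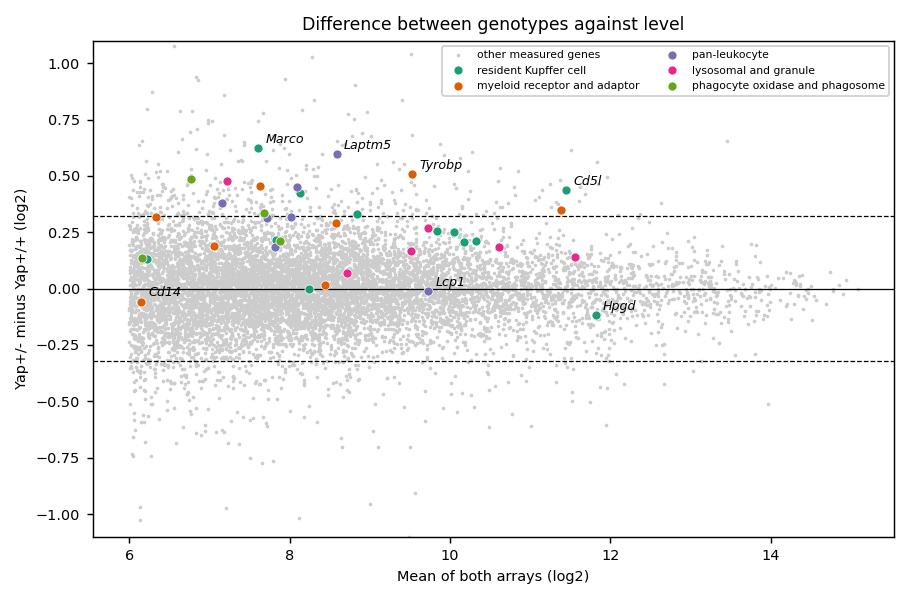
Log2 difference, Yap+/- minus Yap+/+ (y axis), against the mean of both arrays (x axis) for measured genes, with members coloured by role and dashed lines at the threshold of 0.322. The axis leaves out 25 genes with differences beyond 1.1 on either side, and 13 members lie above the upper dashed line while 0 lie below the lower one.

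Values of the array and of the samples that run alongside these differences are given once here. On its brighter probe set Yap1 had 9.24 in Yap+/-, against 9.40 in Yap+/+, and on the other 5.77 in Yap+/-, against 6.01 in Yap+/+. Whether these probe sets lie in the deleted part is unknown here, so they are a weak check of the labels. All 18 hybridisation control probe sets, for RNAs added to the sample just before hybridisation, were higher on the Yap+/- array, by 0.11 to 0.45 on the log2 scale. The 24 poly-A control probe sets, for RNAs added before labelling, were higher there by 0.28 to 1.12. The excess of 3-prime over 5-prime signal was larger in Yap+/- for beta-actin (by 0.20), Gapdh (by 0.22) and pyruvate carboxylase (by 0.21). The part of these array differences in the members' differences was not tested. The labelled tissue was borne out by hepatocyte markers, with Alb at 15.09 on both arrays, and 4 of 12 measured hepatocyte markers were higher, 7 lower, with a median difference of -0.013.

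Promoter sequence is shown for a few members because PU.1 is a known regulator of many of these genes. RefSeq windows of the GRCm38.p6 build, cut to the 250 bases before each annotated start, were at hand for 32 of the 44 members, in 39 windows. The motifs searched on both strands were GAGGAAGT, a PU.1 site, the TEAD site GGAATG, and CACGTG, the E box bound by regulators of lysosomal genes. An ETS core beside an IRF element was searched as GGAA followed after 2 bases by GAAA. After a first search the shorter PU.1 core GAGGAA, which lies within GAGGAAGT, was added. Matched bases are in capitals in the sequences, which run 5′ to 3′ on the strand of the gene. Marco and Laptm5 are shown for their large differences, C1qb and C1qc as neighbouring genes of the same protein complex, Slc11a1 for its TEAD motif and Ctsc for its PU.1 site at a small difference.
Marco (chr1:120505025-120505274, minus strand): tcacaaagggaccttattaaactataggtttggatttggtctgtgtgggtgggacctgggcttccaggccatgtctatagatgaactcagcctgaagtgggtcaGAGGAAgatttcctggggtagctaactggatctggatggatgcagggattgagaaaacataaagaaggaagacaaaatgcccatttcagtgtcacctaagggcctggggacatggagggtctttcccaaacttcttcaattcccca
Laptm5 (chr4:130913066-130913315, plus strand): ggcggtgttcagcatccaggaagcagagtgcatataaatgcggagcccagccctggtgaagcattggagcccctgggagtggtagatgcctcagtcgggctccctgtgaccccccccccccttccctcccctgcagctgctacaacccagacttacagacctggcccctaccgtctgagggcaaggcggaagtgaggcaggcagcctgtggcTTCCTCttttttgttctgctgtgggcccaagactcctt
C1qb (chr4:136886201-136886450, minus strand): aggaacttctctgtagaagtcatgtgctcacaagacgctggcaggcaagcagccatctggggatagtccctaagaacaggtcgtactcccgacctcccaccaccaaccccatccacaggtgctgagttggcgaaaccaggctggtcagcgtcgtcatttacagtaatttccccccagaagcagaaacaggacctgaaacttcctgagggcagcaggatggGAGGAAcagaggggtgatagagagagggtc
C1qc (chr4:136892915-136893164, minus strand): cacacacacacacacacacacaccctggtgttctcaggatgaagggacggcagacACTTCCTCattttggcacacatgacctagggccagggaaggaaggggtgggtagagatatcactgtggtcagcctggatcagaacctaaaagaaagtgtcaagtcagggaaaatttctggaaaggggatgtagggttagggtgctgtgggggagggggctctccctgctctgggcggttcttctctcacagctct
Slc11a1 (chr1:74374953-74375202, plus strand): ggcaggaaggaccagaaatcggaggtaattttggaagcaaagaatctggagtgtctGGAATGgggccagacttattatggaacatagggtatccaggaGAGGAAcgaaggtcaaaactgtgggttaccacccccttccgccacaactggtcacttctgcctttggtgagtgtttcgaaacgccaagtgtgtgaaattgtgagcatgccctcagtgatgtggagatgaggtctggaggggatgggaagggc
Ctsc (chr7:88277835-88278084, plus strand): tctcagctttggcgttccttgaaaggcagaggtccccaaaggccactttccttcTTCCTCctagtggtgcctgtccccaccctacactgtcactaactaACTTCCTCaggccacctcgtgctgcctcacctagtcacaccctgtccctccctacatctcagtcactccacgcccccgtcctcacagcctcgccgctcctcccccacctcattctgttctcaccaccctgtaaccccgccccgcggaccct

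The longer PU.1 site was found in 2 of the 39 member windows (5.13%), those of C1qc and Ctsc, against 2.44% of all 32851 windows. In C1qc it began 195 bases before the start and in Ctsc 151 bases before it, in both on the opposite strand. The shorter core was found in 18 member windows (46.2%), of 17 genes, against 23.3% of all windows. All promoters shown had it. It began 146 bases before the start in Marco, 38 in Laptm5, 30 in C1qb and 152 in Slc11a1. In C1qc it began 193 bases before the start, within the longer site. In Ctsc it began 149 bases before the start, within the longer site, and again at 196 bases. The ETS and IRF motif was found in 2 windows (5.13%), of Folr2 and Timd4, against 2.30%. The TEAD motif was found in 3 member windows (7.69%), of Lcp1, Lgmn and Slc11a1, against 12.6% of all windows, and the E box in 1 (2.56%), of Lgmn, against 6.02%. These are matches of letters in short windows, and binding was not measured. Whether the motifs are linked to the differences between genotypes was not tested.

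Resident Kupffer cell genes were higher as a group by a small amount, with the scavenger receptor Marco in front. All 12 were measured, of which 10 were higher and 1 lower, and 4 were higher by at least 0.322, with a median difference of 0.23. Marco, which binds bacteria, read 7.92 in Yap+/- and 7.30 in Yap+/+ (1.54-fold). Its second probe set, averaging under 6, had 5.78 in Yap+/- and 5.80 in Yap+/+, so the difference rests on the brighter probe set. Cd5l, a secreted macrophage protein that binds lipids and protects from cell death, read 11.67 in Yap+/- and 11.23 in Yap+/+ (1.35-fold). Adgre1, the adhesion receptor that carries a classical macrophage antigen, read 8.35 in Yap+/- and 7.92 in Yap+/+ (1.34-fold).

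The receptors Clec4f, Vsig4, Cd163 and Timd4 differed less than the brighter probe set of Marco. Clec4f, a lectin found on mouse Kupffer cells, read 10.28 in Yap+/- and 10.07 in Yap+/+ (1.15-fold). Vsig4, a receptor for complement C3 fragments, read 10.43 in Yap+/- and 10.23 in Yap+/+ (1.16-fold). Cd163, the scavenger of haemoglobin bound to haptoglobin, read 7.94 in Yap+/- and 7.72 in Yap+/+ (1.16-fold). Timd4, a receptor for phosphatidylserine on dying cells, read 6.29 in Yap+/- and 6.15 in Yap+/+, near the minimum. Each of these 4 genes was higher in Yap+/-, by less than the threshold. Folr2, folate receptor beta, read 8.24 on both arrays, and 1.58% of measured genes likewise had values equal to the last digit.

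C1qa, C1qb and C1qc, whose products assemble into C1q, the recognition part of the first complement component, lie next to each other on chromosome 4 and differed by similar amounts. C1qa read 10.17 in Yap+/- and 9.92 in Yap+/+, and C1qb read 9.97 in Yap+/- and 9.71 in Yap+/+ (1.19-fold each). C1qc read 9.01 in Yap+/- and 8.68 in Yap+/+ (1.26-fold), just past the threshold. All 3 chains were thus higher in Yap+/-, and the other probe sets of C1qb gave larger differences of 0.52 and 0.40. Hpgd, the dehydrogenase that inactivates prostaglandins, had the lowest difference of all members, -0.12, with 11.76 in Yap+/- and 11.88 in Yap+/+, and its second probe set gave -0.21.

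Myeloid receptors and adaptors had a median difference of 0.30, with 7 of 8 measured members higher, 1 lower and 3 higher by at least 0.322. Csf1r, the receptor for the macrophage growth factor CSF1, read 11.56 in Yap+/- and 11.21 in Yap+/+ (1.27-fold), and its other probe sets gave differences of 0.48 and 0.25. Tyrobp, the signalling adaptor also called DAP12, read 9.79 in Yap+/- and 9.28 in Yap+/+ (1.42-fold). Fcgr3, a receptor for the constant part of IgG, read 7.86 in Yap+/- and 7.40 in Yap+/+ (1.37-fold). These 3 were the members of the group past the threshold, and Tyrobp and Fcgr3 each had a single probe set.

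The remaining receptors were nearer to the threshold or close to equal. Fcgr1, the high-affinity IgG receptor, read 6.50 in Yap+/- and 6.18 in Yap+/+, with a difference of 0.316 just under the threshold of 0.322, while its dim second probe set gave -0.15. Fcer1g, the signalling chain that Fc receptors share, read 8.73 in Yap+/- and 8.44 in Yap+/+ (1.23-fold). Sirpa, the inhibitory receptor for CD47, read 7.15 in Yap+/- and 6.96 in Yap+/+ (1.14-fold). The scavenger receptor Msr1 read 8.45 in Yap+/- and 8.44 in Yap+/+, a difference of 0.02 beside 0.62 for Marco, which belongs to the same receptor class. That contrast rests on the brightest probe sets. The other measured probe set of Msr1 gave 0.09 and its dim ones 0.20 and 0.45, while the dim second probe set of Marco gave -0.02. The receptors for bacterial lipopolysaccharide also stood near equality, Cd14 at 6.12 in Yap+/- and 6.18 in Yap+/+, and Tlr4, under the minimum, at 4.65 in Yap+/- and 4.69 in Yap+/+.

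Pan-leukocyte genes had a median difference of 0.32, close to that of receptors and adaptors, but only 7 of 12 were measured, and the median was 0.18 over the 3 genes left without probe sets that carry a suffix. Of these, 6 were higher and 1 lower, and 3 were higher by at least 0.322. Laptm5, a lysosomal membrane protein of blood cells, read 8.89 in Yap+/- and 8.29 in Yap+/+ (1.51-fold). Its probe set carries a suffix for shared targets, and the other measured probe sets of Laptm5 gave 0.27 and -0.15, so they disagree in direction. Cd52, a short glycoprotein of leukocyte surfaces, read 8.32 in Yap+/- and 7.87 in Yap+/+ (1.37-fold). Lst1, a leukocyte transcript encoded next to Aif1 on chromosome 17, read 7.35 in Yap+/- and 6.97 in Yap+/+ (1.30-fold).

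Ptprc, the common leukocyte antigen, read 8.17 in Yap+/- and 7.86 in Yap+/+, a difference of 0.317 just under the threshold. Aif1, an actin-binding protein of macrophages, read 7.88 in Yap+/- and 7.56 in Yap+/+, with a difference of 0.31. Cd53, a leukocyte tetraspanin, read 7.91 in Yap+/- and 7.72 in Yap+/+ (1.14-fold). All 3 were higher by less than the threshold, whereas Lcp1, the actin-bundling protein plastin of leukocytes, read 9.72 in Yap+/- and 9.73 in Yap+/+, and its second probe set gave -0.22.

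The pan-leukocyte genes under the minimum included both transcription factors of the list. Spi1, which encodes PU.1, read 5.68 in Yap+/- and 5.24 in Yap+/+, a difference of 0.44. Irf8, which acts with PU.1 in myeloid development, read 6.15 in Yap+/- and 5.82 in Yap+/+, a difference of 0.33 at a mean of 5.98, the member nearest below the minimum, while Cd14 at a mean of 6.15 was the nearest above it. Coro1a, an actin regulator, read 5.77 in Yap+/- and 5.51 in Yap+/+. The integrin chains Itgam, at 3.73 in Yap+/- and 3.62 in Yap+/+, and Itgax, at 5.04 in Yap+/- and 4.94 in Yap+/+, are markers of monocytes, neutrophils and dendritic cells. At these levels the arrays are not shown to read above background. Without the minimum, 39 of the 44 members were higher, 4 were lower, and 15 were higher by at least 0.322, with a median of 0.25. The median over all genes was then 0, but the shares of all genes higher or past the threshold were not counted in that setting. These member counts therefore have no background beside them.

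Lysosomal and granule genes of myeloid cells had the lowest median of the 5 groups, 0.18, although all 6 were higher. Cd68, a lysosomal membrane glycoprotein of macrophages, was the only member past the threshold, at 7.46 in Yap+/- and 6.98 in Yap+/+ (1.39-fold). Mpeg1, the pore-forming protein perforin-2, read 9.86 in Yap+/- and 9.60 in Yap+/+ (1.20-fold). The protease cathepsin S, Ctss, read 10.70 in Yap+/- and 10.51 in Yap+/+ (1.14-fold). Lyz2, the lysozyme of phagocytes, read 9.60 in Yap+/- and 9.43 in Yap+/+ (1.12-fold). Cathepsin C, Ctsc, which activates granule proteases, read 11.63 in Yap+/- and 11.49 in Yap+/+ (1.10-fold). The cysteine protease legumain, Lgmn, read 8.74 in Yap+/- and 8.68 in Yap+/+ (1.05-fold). Ctsc and Lgmn, which other cell types also express, had differences of 0.14 and 0.07, beside 0.48 for Cd68.

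Genes of the phagocyte oxidase and phagosome had a median of 0.27, with all 4 measured members higher and 2 past the threshold of 0.322. Slc11a1, a metal transporter of the phagosome membrane, read 7.01 in Yap+/- and 6.52 in Yap+/+ (1.40-fold). Cybb, the catalytic subunit of the oxidase that makes superoxide, read 7.84 in Yap+/- and 7.51 in Yap+/+ (1.26-fold). Cyba, its membrane partner, read 7.99 in Yap+/- and 7.78 in Yap+/+ (1.16-fold). Of the cytosolic subunits, Ncf1 read 6.23 in Yap+/- and 6.09 in Yap+/+, and Ncf4, dim on these arrays, had 5.80 in Yap+/- and 5.72 in Yap+/+. The cytosolic subunits, with differences under those of Cybb and Cyba, lay near the minimum of 6.

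The comparison of resident Kupffer genes with the other groups gave small gaps beside the spread within each group. The resident median was lower than the pan-leukocyte median by 0.08 and higher than the lysosomal median by 0.06. Differences of single genes ran from -0.12 to 0.62 among resident genes, from -0.01 to 0.60 among pan-leukocyte genes and from 0.07 to 0.48 among lysosomal genes, so the groups overlapped over most of their range. The sign of the first gap depended on the probe sets, since the resident median was higher by 0.05 when all probe sets with a suffix were left out, both those for targets shared between genes (_s and _x) and those for several transcripts of a gene (_a), which left 3 pan-leukocyte genes, Lcp1, Cd53 and Cd52. With _s and _x alone left out, a setting chosen after seeing the data, it stayed lower by 0.08. None of these gaps was tested. In bulk liver RNA, more cells of a type and more RNA per cell cannot be told apart.

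Lysosomal genes that most cells use lay near equality in these arrays. Of 20 measured ubiquitous lysosomal genes, 8 were higher, 12 lower and 0 past the threshold in either direction, with a median of -0.009, so the resident Kupffer median lay higher by 0.24. The protease gene Ctsb read 12.33 in Yap+/- and 12.23 in Yap+/+, and Grn, the progranulin gene, which macrophages express strongly, had the highest difference of the list, at 12.14 in Yap+/- and 11.91 in Yap+/+. The lowest difference was that of Gusb, beta-glucuronidase, at 8.45 in Yap+/- and 8.63 in Yap+/+.

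Further Kupffer cell genes outside the list leaned the same way, with a median of 0.16 over 11 measured genes, of which 9 were higher, 2 lower and 4 higher by at least 0.322. Hmox1, the haem-degrading enzyme, read 6.64 in Yap+/- and 6.09 in Yap+/+ (1.47-fold). Clec1b, the lectin that binds podoplanin, read 8.56 in Yap+/- and 8.11 in Yap+/+ (1.36-fold), and Id1, an inhibitor of basic helix-loop-helix factors, read 9.08 in Yap+/- and 8.72 in Yap+/+ (1.28-fold). Not all factors tied to Kupffer cell identity were higher, since the liver X receptor gene Nr1h3 read 8.49 in Yap+/- and 8.57 in Yap+/+, and Id3 read 9.12 in Yap+/- and 9.17 in Yap+/+. Some of these genes are also expressed by endothelial cells and hepatocytes.

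Partners of the members, meaning ligands, kinases and subunits that act with them, had a median of 0.12. Of 31 listed, 27 were matched and 24 measured, of which 20 were higher, 4 lower and 6 higher by at least 0.322. Among the ligands, Csf1, which acts on CSF1R, read 6.46 in Yap+/- and 6.54 in Yap+/+, Il34, the other ligand, was under the minimum at 4.28 in Yap+/- and 4.12 in Yap+/+, and Cd47, the ligand of SIRPA, read 10.68 on both arrays. Of these, Csf1 and Cd47 were measured, with differences of -0.09 and -0.008. Icam1, a ligand of leukocyte integrins, read 7.15 in Yap+/- and 6.81 in Yap+/+ (1.26-fold), past the threshold. The largest differences among partners included Fcgr4, an activating IgG receptor, at 7.23 in Yap+/- and 6.77 in Yap+/+ (1.38-fold) and the oxidase GTPase Rac2 at 6.35 in Yap+/- and 5.92 in Yap+/+ (1.35-fold). Rac1, the widely expressed relative of Rac2, read 10.53 in Yap+/- and 10.61 in Yap+/+. Fermt3, the integrin activator of blood cells, read 7.63 in Yap+/- and 7.28 in Yap+/+ (1.28-fold), while Tln1, the widely expressed talin, read 7.66 in Yap+/- and 7.78 in Yap+/+. The C1 proteases C1ra and C1s1, which hepatocytes make, differed by 0.14 and 0.11, less than the C1q chains.

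**Figure D3:**
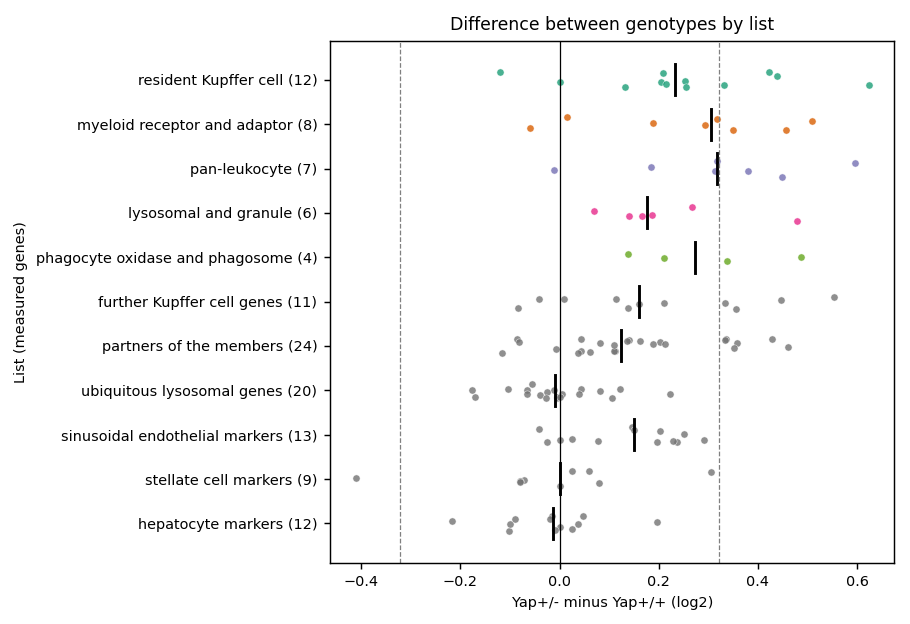
Log2 difference, Yap+/- minus Yap+/+ (x axis), of the measured genes in each list (y axis, number of genes in brackets), with black bars at the list medians and dashed lines at the threshold of 0.322. The medians of the 5 member groups lie between 0.18 and 0.32, and those of further Kupffer cell genes and of partners at 0.16 and 0.12. The median of sinusoidal endothelial markers lies at 0.15 and that of stellate cell markers at 0.0005. Medians of ubiquitous lysosomal genes and hepatocyte markers lie at -0.009 and -0.013.

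Markers of other cells that share the sinusoid or share member genes were examined beside these values. Sinusoidal endothelial markers had 10 of 13 measured genes higher, 2 lower and 0 past the threshold, with a median of 0.15, and the sum of their linear values was 6775 in Yap+/- and 6063 in Yap+/+, a ratio of 1.12. Clec4g, a lectin, had 10.91 in Yap+/-, against 10.61 in Yap+/+. The level of Stab2, which takes up hyaluronan, was 9.39 in Yap+/-, against 9.24 in Yap+/+. The 2 lower endothelial markers were Oit3, at 8.19 in Yap+/- and 8.23 in Yap+/+, and Kdr, at 8.87 in Yap+/- and 8.89 in Yap+/+. The linear sums of the member groups had ratios of Yap+/- to Yap+/+ from 1.13 for lysosomal and resident genes to 1.26 for receptors and adaptors. Such sums are weighted to bright genes. The brightest resident gene, Hpgd, had a difference of -0.12, and the brightest receptor, Csf1r, had one of 0.35. Stellate cell markers had 5 of 9 measured genes higher and 4 lower, with a median of 0.0005 and a ratio of 0.998. They went both ways, with Des, at 6.71 in Yap+/- and 7.12 in Yap+/+, the 1 gene past the threshold, and Pdgfrb at 8.56 in Yap+/- and 8.26 in Yap+/+. Whether the endothelial difference and the members' difference are linked was not tested.

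Most markers of circulating white cells were under the minimum. Of the 7 matched monocyte markers only Plac8 was measured, at 8.99 in Yap+/- and 8.96 in Yap+/+, and Ccr2, the receptor that defines inflammatory monocytes, read 5.90 in Yap+/- and 5.79 in Yap+/+. The sum over the monocyte markers was 648 in Yap+/- and 629 in Yap+/+. Of the 11 matched neutrophil markers, 2 were measured, S100a9 at 7.02 in Yap+/- and 5.58 in Yap+/+ and Csf3r at 6.82 in Yap+/- and 6.86 in Yap+/+. Under the minimum, S100a8 had 5.95 in Yap+/-, against 4.36 in Yap+/+. The granule genes, also under it, went both ways. Ngp, at 5.03 in Yap+/- and 4.49 in Yap+/+, and Elane, at 4.90 in Yap+/- and 4.64 in Yap+/+, were higher. Mmp8, at 3.38 in Yap+/- and 3.79 in Yap+/+, and Mpo, at 4.44 in Yap+/- and 4.54 in Yap+/+, were lower. Without the minimum, 7 neutrophil markers were higher and 4 lower. The neutrophil sum was 494 in Yap+/- and 361 in Yap+/+, a ratio of 1.37, and most of that gap came from S100a9 and S100a8. The part of neutrophils in the differences of pan-leukocyte members, which neutrophils also express, was not tested.

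Dendritic cell, lymphocyte and erythroid markers completed the lists. All 6 matched dendritic cell markers were under the minimum, with 3 higher, 3 lower and sums of 174 in both genotypes. Of 14 matched lymphocyte markers, Ccl5 and Gzma, products of T and NK cells, were the measured genes. Ccl5 read 7.14 in Yap+/- and 6.52 in Yap+/+, and Gzma read 6.39 in Yap+/- and 5.96 in Yap+/+. The T cell receptor genes Cd3d, Cd3e and Cd3g were under the minimum. Cd3d, at 5.23 on both arrays, and Cd3e, at 5.93 in Yap+/- and 5.85 in Yap+/+, were equal or nearly so. Cd3g was lower in Yap+/-, with a difference of -0.16. The B cell genes Cd79a, Ms4a1 and Cd79b, also under the minimum, had differences of 0.08, 0.09 and -0.04. Without the minimum, 9 of the 14 matched lymphocyte markers were higher and 3 lower. The lymphocyte sum was 636 in Yap+/- and 550 in Yap+/+. Of 2 measured erythroid markers, Alas2 was higher by 0.10 and Klf1 lower, with a difference of -0.13.

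Agreement between probe sets of the same gene gives a check within these arrays. The 44 members were read by 75 probe sets, with 27 members read by 1 probe set and 17 by several. Of the 31 probe sets that did not represent a gene, 24 were higher in Yap+/- and 6 lower, but most of the 31 averaged under 6. The matching share over all probe sets of the arrays that represent no gene was not counted. Of the 9 among the 31 with a mean of at least 6, 6 had higher and 3 had lower values, the median being 0.25. The 3 lower ones belonged to Hpgd, Lcp1 and Laptm5. Csf1r and C1qb were the genes with 3 measured probe sets that all had higher values in Yap+/-. Over all 3406 genes with at least 2 measured probe sets, the brightest pair disagreed about the difference with a robust SD of 0.17. The differences of Marco, Laptm5 and Tyrobp were larger than this SD, and those of Ctsc and Lgmn were smaller. However, the probe sets of Marco gave 0.62 and, at a mean under 6, -0.02. The measured probe sets of Laptm5 gave 0.60, 0.27 and -0.15. Tyrobp had 1 probe set, so its difference could not be checked in this way.

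**Figure D4:**
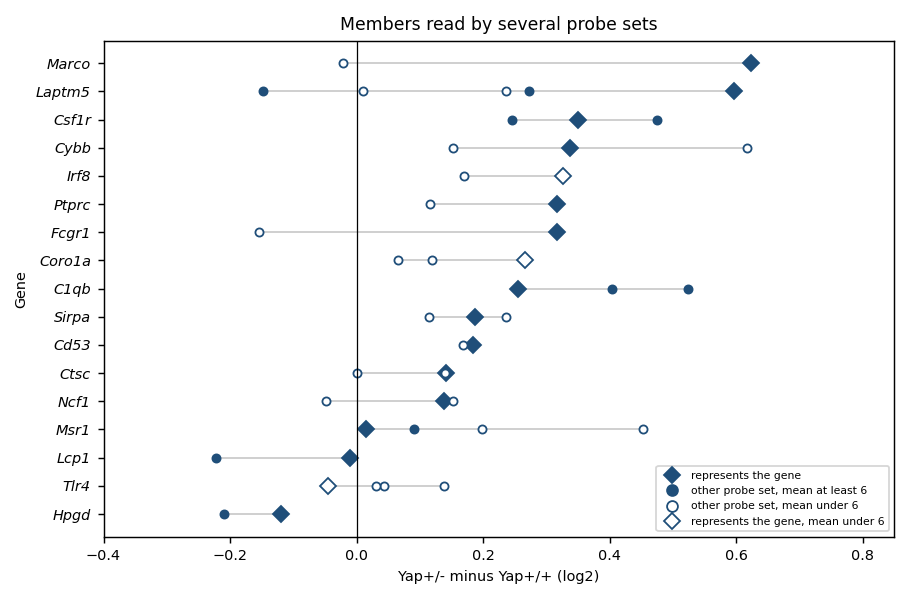
Log2 difference, Yap+/- minus Yap+/+ (x axis), of every probe set of the 17 members with several (y axis, sorted by the probe set that represents the gene). Diamonds represent the gene, circles are other probe sets, and open symbols have a mean under 6. All probe sets of Csf1r and C1qb lie to the right of 0, while those of Laptm5 lie between -0.15 and 0.60.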

How the data were processed

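RNA of 1 pool of livers per genotype was labelled with a 3-prime in vitro transcription kit, per the labels' protocols, and hybridised to 1 array each. The authors deposited a log2 value per probe set, made with RMA (background correction, quantile normalisation and summary of probes) and Partek 6.5, per the submitters' processing notes, whose settings are unknown here. There were 45101 probe sets, and columns had medians of 4.92 in Yap+/- and 4.93 in Yap+/+ and sorted columns within 0.047 of each other, so an overall difference in RNA amount would largely be removed. Scanner files were not used here, so the scale and centring rest on these notes and on the values, detection above background is unknown, and the number of arrays limits precision.

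The platform annotation gave 1 gene symbol to 34945 probe sets, several to 932 and none to 9160, and 64 more were array controls. All 44 members kept their symbol when looked up by gene identifier in a RefSeq table of assembly GRCm38.p6. The minimum mean was 6, and genes were counted past a log2 difference of 0.322, at 1.5-fold and at 2-fold. The members, their roles, the other lists and the thresholds were chosen with earlier results of these data known. All members may be named, and of each other list up to 3 measured genes per direction with the largest differences and genes that define a cell type. Ctsb, Stab2, Alb, Ngp, Elane and Mmp8, and genes near equality, were added after their values were seen. The linear sums take 2 to the power of each log2 value over all matched genes of a list. The counting was tested on simulated data. The work was done in Python 3.11.15 with pandas 2.3.3, numpy 2.4.6, matplotlib 3.10.9 and, for lowess, statsmodels 0.14.6.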

Additional observations from a re-analysis of the deposited data

How the results depend on the processing

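Alternatives were no minimum mean, a minimum of 5 or 7, averaging a gene over its probe sets, leaving out all probe sets with a suffix (_a, _s or _x), leaving out those with _s or _x alone (chosen after seeing the data), quantile normalisation, median centring, subtraction of a lowess trend, adding 64 on the linear scale, and the list without its largest member, Marco. Under these 11 the median difference of the members lay between 0.23 and 0.27, and the number higher by at least 0.322 between 9 and 16, with 0 lower by that much. At 1.5-fold 2 members were higher, and at 2-fold 0, by construction of a larger threshold. The resident minus pan-leukocyte median, -0.083, became 0.049 when all probe sets with a suffix were left out, which kept 30 measured members and 3 pan-leukocyte genes, and stayed at -0.083 with _s and _x alone left out. Its lowest value, -0.10, came without C1qa, C1qb, C1qc and Hpgd. The resident minus lysosomal median, 0.057, lay between 0.036 and 0.076, except that it was 0.24 against ubiquitous lysosomal genes. No paired analysis was possible because each genotype has 1 pool and the labels give no replicate numbers, and no replicate could be left out. With 1 array per genotype, no value carries an error between mice.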
